A study of Mus musculus with 6 samples.

Results

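Axon guidance genes code for 4 pairs of ligand and receptor families: semaphorins with plexins, ephrins with Eph receptors, Slits with Robo receptors, and netrins with Unc5 receptors. They were chosen here by gene symbol alone (Sema3 to Sema7, Plxna to Plxnd, Efna and Efnb, Epha and Ephb, Slit, Robo, Ntn1 to Ntn5 and every symbol that starts with Unc5). The pattern found 69 symbols in RefSeq, and 67 of them had a value among the 19938 genes measured. Ephb2 and the antisense gene Plxna4os1 had no probe set of their own in the annotation used here. The pattern also took in Unc50 and Unc5cl, which share letters with the netrin receptors but are not known as netrin receptors. They are kept in the counts, and the counts without them are given once.

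The values come from Cxcl12-abundant reticular (CAR) cells, stromal cells of mouse bone marrow that make the chemokine Cxcl12. Each of the 6 samples was run on its own Affymetrix mogene 1.0 ST array, in 3 arrays of targeted CAR cells (T1, T2 and T3) and 3 of non-targeted CAR cells (N1, N2 and N3), numbered by the labels' biological replicate. Both groups had the strain C57BL/6, the genotype Dmp1-Cre Cxcl12-gfp/+ and an age of 7 weeks, and marrow of femur and tibia was sorted by flow cytometry without other treatment. By their labels the groups share both alleles and differ in whether Dmp1-Cre had targeted the cells. The labels do not show whether the sorted samples also differed in other ways. Dmp1-Cre is driven by regulatory sequence of Dmp1, a bone matrix gene of late osteoblasts and osteocytes, and the labels do not say how targeting was read out. The series' design text has the cells of 1 mouse as 1 sample and names 3 mice, without saying which arrays share a mouse.

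Guidance proteins are best known for steering growing axons, and the same families act between the cells of bone and marrow. Ephrins, many semaphorins and the plexin, Eph and Robo receptors sit in the cell membrane, so signalling often needs contact, whereas class 3 semaphorins, Slits and netrins are secreted. In bone, semaphorin 3A and the pair ephrin-B2 and EphB4 are known as signals between osteoblasts and osteoclasts, semaphorin 4D as an osteoclast product that restrains osteoblasts, and Slit3 as a signal from bone cells to vessels.

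The labels' grouping and the cell type were checked first. Dmp1 was at log2 intensities of 7.51, 6.93 and 6.91 on N1 to N3 and 11.28, 10.03 and 9.89 on T1 to T3 (log2 difference 3.28, limma adjusted p = 0.384). Cxcl12 was at 12.32 to 12.65 on the non-targeted and 12.22 to 12.40 on the targeted arrays. The mean over 10 marrow stroma markers was 11.40 to 11.76 on non-targeted and 11.12 to 11.49 on targeted arrays, and that over 5 osteoblast markers other than Dmp1 was 9.24 to 9.32 and 9.61 to 10.17. Of 9 osteoblast markers listed, 6 had a value, Dmp1 among them. Alpl, Col1a1 and Sp7 were higher on all targeted arrays (log2 differences 1.11, 1.08 and 0.37), while Ibsp (0.05) and Ifitm5 (0.27) overlapped. Array T1 stood apart in both directions, with an osteoblast mean of 10.17, the highest of the 6, and a mean over 8 neutrophil markers, 7 of them above background, of 6.39 against 8.44 to 9.56 on the other arrays. Of 12 endothelial markers, 3 exceeded background, and Pecam1, Kdr and Emcn did not. The neutrophil mean was 8.82 to 9.56 on non-targeted arrays, and T2 at 8.44 was also below these, while T3 was at 9.21. Targeted minus non-targeted list means were -1.17 for neutrophil, -0.30 for marrow stroma and 0.575 for the 5 osteoblast markers. For endothelial, pericyte, macrophage and osteoclast, and B cell markers they were 0.03, -0.08, 0.05 and -0.31. For T cell, erythroid, megakaryocyte and neural markers they were 0.09, -0.07, -0.30 and 0.13. In sorted bulk samples, fewer cells of a type and less RNA per cell cannot be told apart.

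Of the 67 guidance genes, 42 (62.7%) had a mean log2 intensity above background, against 56.2% of all 19938 genes. Background was set at 6.38, the 95th percentile of 1194 olfactory and vomeronasal receptor genes, which are made by sensory neurons and serve as genes with no known role in stroma. All families had members on both sides of it. Above background were 12 of 20 semaphorins, 7 of 9 plexins, 5 of 8 ephrins, 6 of 13 Eph receptors, 4 of 7 Slit and Robo genes and 8 of 10 netrin and Unc5 genes. Without Unc50 and Unc5cl the count was 40 of 65. On all 6 arrays, 34 of the 67 members exceeded the array's own 95th percentile, beside 9314 of all 19938 genes. On none of the arrays did 21 members exceed it. The last members inside were Plxna4 at 6.42 and Slit1 at 6.45, and the first outside were Efna2 at 6.35 and Sema4a at 6.31. Intensities also depend on the probes, so levels are not compared between genes.

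The 25 genes at or below background included several with known roles in bone. Sema3a, the secreted semaphorin that protects bone, was at 5.30, 4.85 and 5.06 on N1 to N3 and 6.19, 5.24 and 5.26 on T1 to T3, so only T1 approached the level of background. Efnb2, the ligand of EphB4, was at 5.73 to 6.13 on non-targeted and 5.74 to 6.05 on targeted arrays. Plxnc1, a plexin receptor of semaphorin 7A, was at 5.69 to 5.97 and 5.70 to 5.82. The other members not above background were Sema3c, Sema3d, Sema3e, Sema4a, Sema4f, Sema4g, Sema6a, Plxnb3, Efna2, Efna3, Epha1, Epha3 to Epha7, Ephb1, Robo2, Robo3, Robo4, Ntn4 and Ntn5. For these genes the arrays give an upper bound rather than a level.

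**Figure D1:**
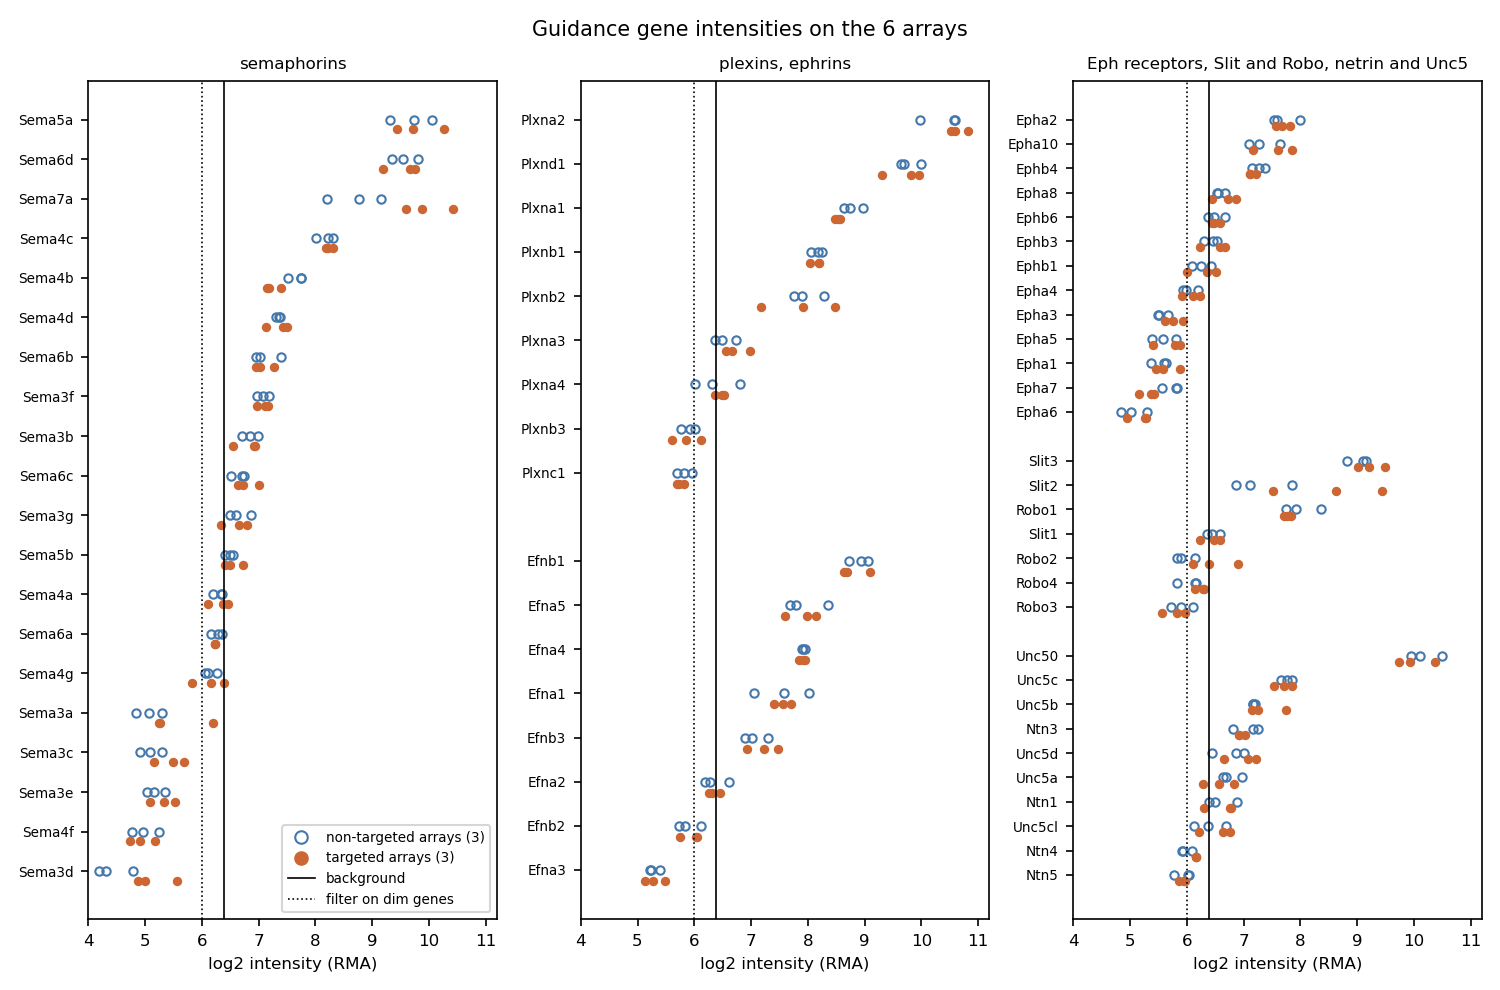
Log2 intensity (RMA, horizontal axis) of all 67 guidance genes on the 3 non-targeted arrays (open circles) and 3 targeted arrays (filled circles), grouped by family. The solid line is background at 6.38 and the dotted line the filter on dim genes at 6.00. To the right of both lines, Sema7a and Slit2 show the largest differences of group means, though the Slit2 arrays overlap between groups.

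The comparison of targeted with non-targeted cells addressed how the Cre-targeted subset of CAR cells differs from the rest. Most guidance genes differed by less than 0.25 on the log2 scale. The 6 tested genes beyond that were Sema7a and Slit2, each over 2-fold higher in targeted cells by the group means, Robo2 and Plxna2 higher, and Sema4b and Plxna1 lower. Of the 67 genes, 51 passed the filter on dim genes and were tested with limma, and 0 passed the threshold of an adjusted p under 0.05, as did 0 (0%) of all 13292 genes tested. At an unadjusted p under 0.05 there were 3 guidance genes (5.88%), Sema7a and Slit2 higher and Sema4b lower, beside 4.77% of all genes tested (1.35% higher and 3.42% lower). For 4 guidance genes (7.84%) all arrays of one group lay beyond those of the other, Sema7a and Ntn4 higher and Sema4b and Plxna1 lower, beside 9.07% of all genes (3.32% higher and 5.76% lower). Both shares of guidance genes were near those of all genes. Ntn4 and Robo2 passed the filter on dim genes only through the targeted group, and neither was above background. Among the 42 guidance genes above background, 3 (7.14%) did not overlap, beside 9.49% of all genes above background.

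Among the 51 tested genes, 27 (52.9%) were higher in targeted cells and 24 lower, beside 48.9% higher of all genes, and the median log2 difference was 0.01 against -0.01. For 45 of 51 (88.2%) the difference was smaller than 0.25 on the log2 scale, beside 73.9% of all genes. At the other end, 2 of 51 (3.92%) differed at least 2-fold, beside 0.715% of all genes (0.301% higher). The 95% intervals of the fit had a median half-width of 0.42 (0.31 to 1.10). They lay within a 2-fold difference in either direction for 48 genes, all except Sema7a, Slit2 and Robo2. Without Unc50 and Unc5cl, 26 of 49 were higher and 23 lower.

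**Figure D2:**
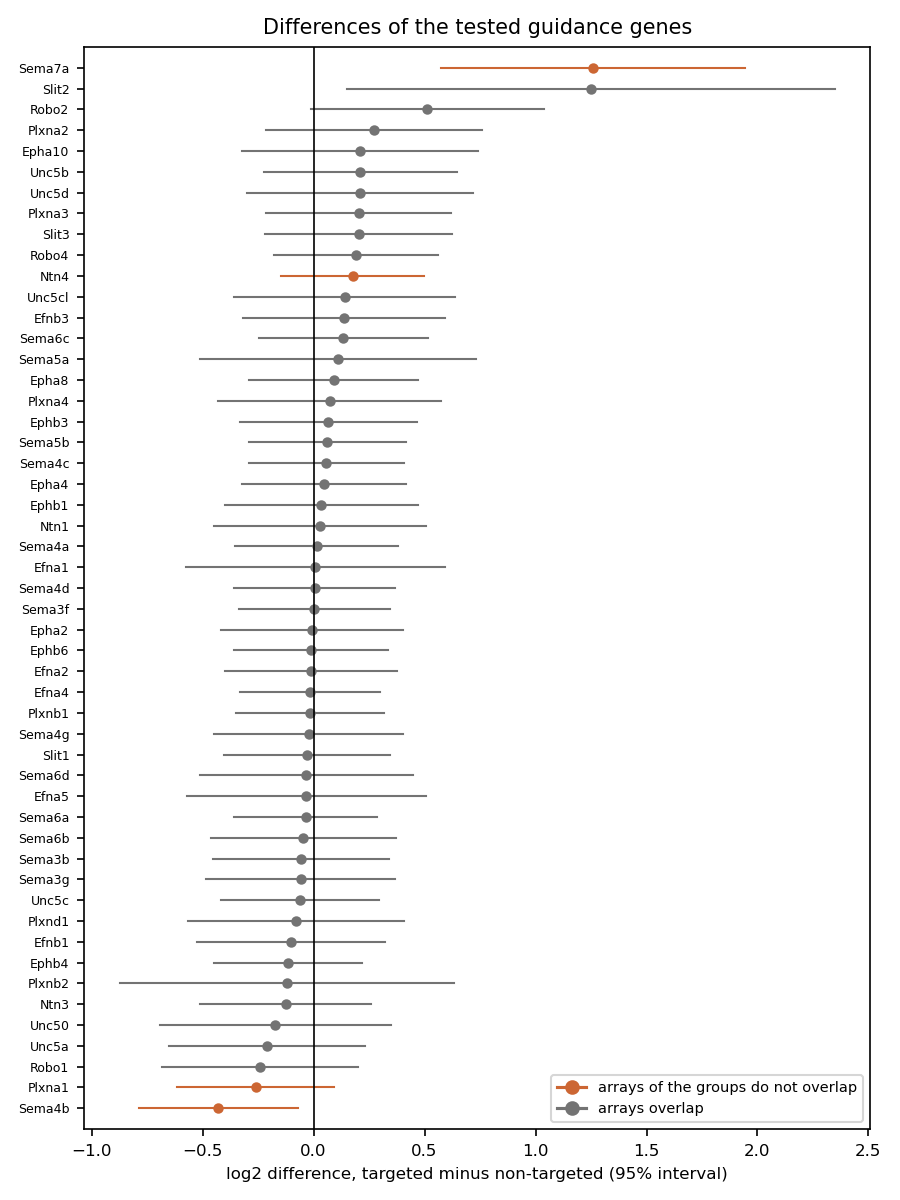
Log2 difference, targeted minus non-targeted, with its 95% interval from limma (horizontal axis) for the 51 tested guidance genes (rows). Coloured genes are the 4 whose arrays did not overlap between groups; the intervals of Sema7a, Slit2 and Sema4b alone do not include 0.

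**Figure D3:**
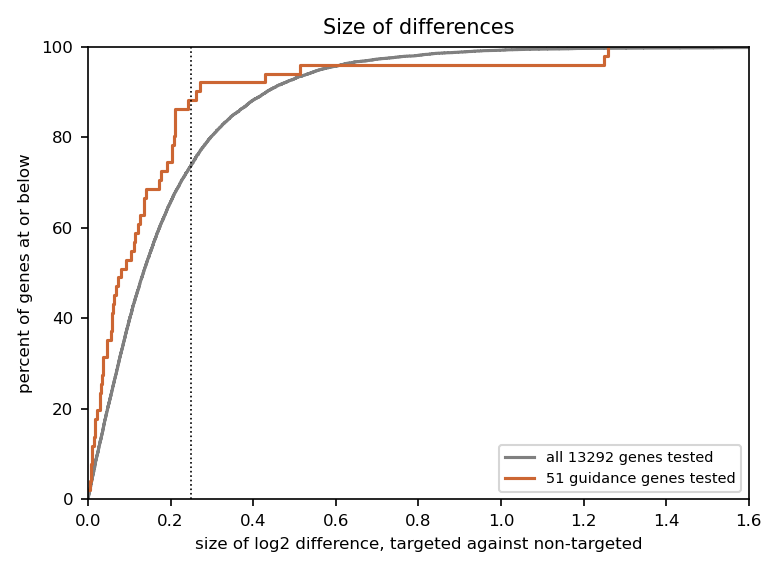
Percent of genes (vertical axis) whose log2 difference was at or below a given size (horizontal axis), for the 51 guidance genes and all 13292 genes tested. At 0.25, the dotted line, the guidance curve stands at 88.2% and that of all genes at 73.9%, and the last steps of the guidance curve are Slit2 and Sema7a. The horizontal axis stops short of the largest differences among all genes.

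Sema7a was the guidance gene with the smallest p. It codes for semaphorin 7A, a semaphorin held in the membrane by a lipid anchor that signals through beta-1 integrins and plexin C1. The log2 intensity was 9.16, 8.20 and 8.76 on N1 to N3 and 9.88, 9.60 and 10.42 on T1 to T3. Every targeted array was above every non-targeted one. The targeted mean was 9.97 ± 0.41 (SD, n = 3) and the non-targeted mean 8.71 ± 0.48 (SD, n = 3). Targeted cells were thus 2.39-fold higher, by 1.26 on the log2 scale with an SE of 0.30 and a 95% interval from 0.57 to 1.95. It stood at rank 53 of the 13292 genes by p, with a limma adjusted p of 0.734. In fits without 1 array each, the difference ran from 1.01 to 1.48, and without both replicate 1 arrays it was 1.53. Beside it, the mean of the 5 osteoblast markers was 10.17 on T1, 9.61 on T2 and 9.78 on T3, above all non-targeted arrays, and that of the neutrophil markers was 6.39, 8.44 and 9.21. The part of either in the difference was not tested.

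The receptors known for semaphorin 7A did not share that pattern. Itgb1, the beta-1 integrin, was at 10.08, 9.97 and 9.96 on N1 to N3 and 10.03, 9.73 and 9.66 on T1 to T3, a log2 difference of -0.20. Itga1, its alpha-1 partner, was at 10.19, 10.46 and 10.19 and at 10.34, 9.54 and 10.05, a log2 difference of -0.31. Both overlapped between groups and did not pass (limma adjusted p = 0.9998 each), and Plxnc1 was not above background.

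The other semaphorins ran from -0.43 to 0.13 in the fit. Sema4b, a transmembrane class 4 semaphorin, was at 7.75, 7.75 and 7.52 on N1 to N3 and 7.15, 7.40 and 7.18 on T1 to T3. All targeted arrays were below all non-targeted ones, by a log2 difference of -0.43 (SE 0.15, 95% interval -0.79 to -0.07, limma adjusted p = 0.970). Leaving out 1 array at a time gave -0.51 to -0.38. Sema4d, the class 4 semaphorin of osteoclasts and lymphocytes, was at 7.31, 7.35 and 7.37 on N1 to N3 and 7.13, 7.43 and 7.49 on T1 to T3, with a log2 difference of 0.01 and an interval of -0.36 to 0.37. A further Sema4d probe set gave 0.20.

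Class 5 and 6 semaphorins span the membrane and bind plexins. Sema5a was at 9.32, 10.05 and 9.73 on N1 to N3 and 10.27, 9.44 and 9.72 on T1 to T3, a log2 difference of 0.11 that turned to -0.31 without both replicate 1 arrays. Sema6d, a ligand of plexin-A1, was at 9.35, 9.82 and 9.54 on N1 to N3 and 9.75, 9.19 and 9.67 on T1 to T3, a difference of -0.03. In both genes the values of the groups overlapped.

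Of the 7 secreted class 3 semaphorins, 4 were not above background. Sema3b, Sema3f and Sema3g exceeded it and differed by -0.06, 0.00 and -0.06 on the log2 scale. Sema3d was not tested, being dim, and is named here because its arrays did not overlap, a choice made after its values were seen. It was at 4.79, 4.19 and 4.32 on N1 to N3 and 5.56, 4.9996 and 4.87 on T1 to T3, all below the background of 6.38. Its receptor partner Nrp1, neuropilin-1, was well above background and lower in targeted cells, at 10.95, 11.28 and 10.95 on N1 to N3 and 10.64, 10.24 and 10.63 on T1 to T3. That difference was -0.56 (SE 0.18) with arrays that did not overlap, and it did not pass (limma adjusted p = 0.947). Nrp2, neuropilin-2, was at 8.95, 9.27 and 8.89 on N1 to N3 and 10.20, 8.97 and 9.04 on T1 to T3, with T1 alone standing high.

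**Figure D4:**
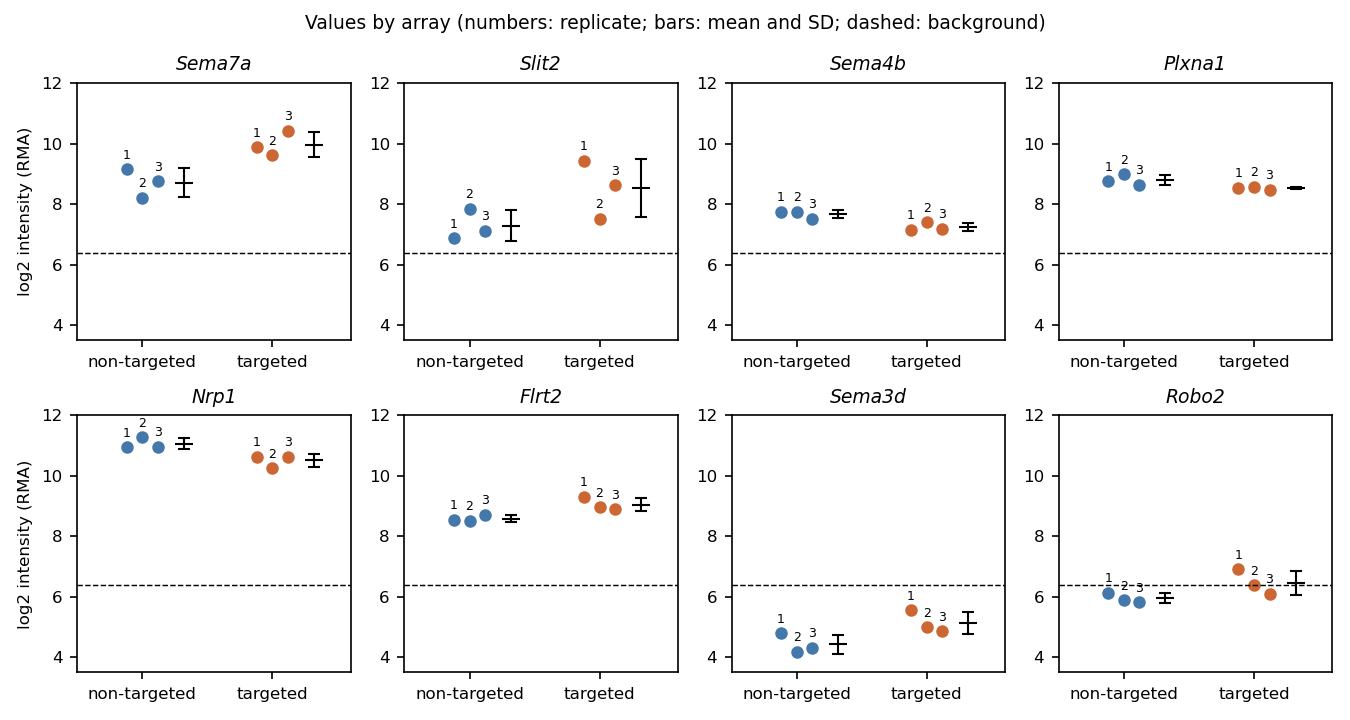
Log2 intensity (RMA, vertical axis) of 8 genes on each array, with the replicate number beside each point, the mean and SD (n = 3) of each group as bars, and background at 6.38 as a dashed line. Targeted arrays lie above all non-targeted arrays for Sema7a, Flrt2 and Sema3d and below them for Sema4b, Plxna1 and Nrp1, while Slit2 and Robo2 overlap between groups.

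Among the plexins, the receptors of semaphorins, 7 were tested and 3 were higher and 4 lower, between -0.26 and 0.27. Plxna1 was at 8.75, 8.98 and 8.64 on N1 to N3 and 8.54, 8.57 and 8.48 on T1 to T3. Its targeted arrays were all lower, by a log2 difference of -0.26 (SE 0.15, 95% interval -0.62 to 0.09, limma adjusted p = 0.9998), which was -0.17 without N2. Plxna2 was at 9.97, 10.57 and 10.60 on N1 to N3 and 10.83, 10.52 and 10.60 on T1 to T3. N1 was its lowest array and T1 its highest, and the difference of 0.27 became -0.02 without both. Plxnd1, a receptor of semaphorin 3E known from vessels, was at 9.70, 9.99 and 9.64 on N1 to N3 and 9.95, 9.31 and 9.82 on T1 to T3, a difference of -0.08. Plxnb1, the receptor of semaphorin 4D, was at 8.06, 8.18 and 8.24 on N1 to N3 and 8.19, 8.20 and 8.04 on T1 to T3, with a difference of -0.02 and an interval of -0.35 to 0.32. Plxnb2 had the widest interval of the plexins, -0.87 to 0.63, with T1 at 8.48 and T2 at 7.18.

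Slit2 codes for a secreted ligand of the Robo receptors and had a log2 difference close to that of Sema7a but a wider spread. It was at 6.87, 7.85 and 7.11 on N1 to N3 and 9.43, 7.51 and 8.63 on T1 to T3. T1 and T3 were above every non-targeted array, and T2 was below N2. The targeted mean was 8.53 ± 0.96 (SD, n = 3), with a non-targeted mean of 7.28 ± 0.51 (SD, n = 3). That is 2.38-fold, or 1.25 on the log2 scale with an SE of 0.47 and a 95% interval from 0.15 to 2.35 (limma adjusted p = 0.971). Without T1 the difference was 0.80, and without both replicate 1 arrays it was 0.59. The mean of the 5 osteoblast markers other than Dmp1 was 9.29, 9.32 and 9.24 on N1 to N3 and 10.17, 9.61 and 9.78 on T1 to T3. That of the neutrophil markers was 8.82, 9.15 and 9.56 on N1 to N3 and 6.39, 8.44 and 9.21 on T1 to T3. The part of either mean in the Slit2 difference was not tested. Slit3, the Slit known from bone, was at 8.83, 9.16 and 9.11 on N1 to N3 and 9.48, 9.01 and 9.21 on T1 to T3, a difference of 0.20 that became -0.02 without both replicate 1 arrays. Slit1 was close to background, at a difference of -0.03.

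Of the Robo receptors, only Robo1 was above background. It was at 7.74, 8.37 and 7.93 on N1 to N3 and 7.76, 7.72 and 7.83 on T1 to T3, a log2 difference of -0.24 with overlapping arrays. Robo2 was at 6.14, 5.89 and 5.82 on N1 to N3 and 6.90, 6.39 and 6.11 on T1 to T3, a difference of 0.51 (SE 0.23, limma adjusted p = 0.9998) that was 0.29 without T1. Its mean was not above background, which T1 exceeded and T2 reached, and it was tested only because of the targeted arrays, so the size of the difference is uncertain. Robo4, a Robo receptor known from endothelial cells, was at 5.83 to 6.17 and 6.14 to 6.30, not above background. This stands beside the endothelial markers, of which 3 of 12 exceeded it.

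The promoters of Sema7a and Slit2 are shown because these were the guidance genes with an at least 2-fold difference. The sequences are from RefSeq (GRCm38.p6), 5′ to 3′, from 250 bases before to 50 after the annotated start, with the GC box core GGGCGG and the TATA box core TATAAA in capitals, both searched on both strands. Sema7a lies on the plus strand at chr9:57939862-57940161 and Slit2 on the plus strand at chr5:47982905-47983204.
Sema7a: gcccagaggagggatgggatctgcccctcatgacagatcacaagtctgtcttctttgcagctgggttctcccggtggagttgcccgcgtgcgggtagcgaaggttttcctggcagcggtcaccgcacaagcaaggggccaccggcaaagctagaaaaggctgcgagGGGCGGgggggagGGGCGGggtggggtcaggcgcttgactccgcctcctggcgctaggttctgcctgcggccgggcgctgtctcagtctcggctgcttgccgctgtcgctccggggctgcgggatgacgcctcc
Slit2: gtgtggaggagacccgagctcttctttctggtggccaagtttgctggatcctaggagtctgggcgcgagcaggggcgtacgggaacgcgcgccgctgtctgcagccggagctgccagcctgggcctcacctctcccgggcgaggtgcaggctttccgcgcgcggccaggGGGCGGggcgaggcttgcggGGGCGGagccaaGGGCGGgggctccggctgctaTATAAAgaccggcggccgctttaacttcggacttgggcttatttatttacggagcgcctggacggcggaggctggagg

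The Sema7a window held 2 GC box cores and 0 TATAAA, and the Slit2 window 3 GC box cores and 1 TATAAA, which begins 28 bases before the start. Neither window held the RUNX core TGTGGT on either strand. Over the 74 RefSeq promoters of the 58 guidance genes that had one in the table, 71.6% held GGGCGG, beside 35.7% of all 32851 promoters of that length. TATAAA was in 2 of the 74 (2.7%), beside 13.6% of all, and Slit2 was 1 of those 2. TGTGGT was in 13.5% of guidance promoters and 16.8% of all. The median GC content was 64.2% against 52.7% for all. Promoters of guidance genes above background (43) had a median of 23 CpG pairs in the window and those not above (31) a median of 15, beside 7 for all. A match of letters is no evidence that a factor binds there.

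None of the 6 tested ephrins had an unadjusted p under 0.05, and their log2 differences ran from -0.10 to 0.14. Efnb1, a transmembrane ephrin, was at 9.06, 8.72 and 8.94 on N1 to N3 and 9.09, 8.64 and 8.69 on T1 to T3, a difference of -0.10 with an interval of -0.53 to 0.32. Efna4, an ephrin held by a lipid anchor, spread little, at 7.95, 7.90 and 7.91 on N1 to N3 and 7.84, 7.95 and 7.91 on T1 to T3. Its difference of -0.02 turned to 0.03 under quantile normalization. Efna5 was at 8.35, 7.69 and 7.78 on N1 to N3 and 8.14, 7.60 and 7.99 on T1 to T3, a difference of -0.03. Replicate 1 was the highest array of Efna5 in each group.

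Of 13 Eph receptors, the kinases that ephrins bind, 8 were tested, and they differed by -0.12 to 0.21. Ephb4, the receptor of ephrin-B2, was at 7.14, 7.38 and 7.27 on N1 to N3 and 7.22, 7.11 and 7.11 on T1 to T3, a difference of -0.12 with an interval of -0.45 to 0.22. Epha2 was at 7.99, 7.53 and 7.58 on N1 to N3 and 7.58, 7.68 and 7.82 on T1 to T3, a difference of -0.01. Epha10 was at 7.63, 7.10 and 7.27 on N1 to N3 and 7.16, 7.61 and 7.86 on T1 to T3, a difference of 0.21, and another probe set of the gene gave 0.08. Epha4 was at 5.93 to 6.19 and 5.91 to 6.22, not above background. Epha7 was dim and not tested, and is named after its values were seen: its arrays did not overlap, at 5.83, 5.56 and 5.81 on N1 to N3 and 5.15, 5.37 and 5.42 on T1 to T3.

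Netrins are secreted guidance ligands, and the Unc5 receptors mediate repulsion from them. The 9 tested genes named Ntn or Unc5 differed by -0.21 to 0.21. Ntn1, netrin-1, was at 6.88, 6.49 and 6.39 on N1 to N3 and 6.30, 6.79 and 6.75 on T1 to T3, a difference of 0.03. Ntn4, netrin-4, had non-overlapping arrays at 6.09, 5.92 and 5.94 and at 6.16, 6.16 and 6.15, but all of these lay below the background of 6.38, and it was tested only because of the targeted arrays. The difference was 0.18 (limma adjusted p = 0.9998).

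Unc5b was at 7.21, 7.16 and 7.16 on N1 to N3 and 7.75, 7.15 and 7.26 on T1 to T3, so the difference of 0.21 was 0.03 without T1. Unc5c was at 7.66, 7.77 and 7.85 on N1 to N3 and 7.85, 7.71 and 7.53 on T1 to T3, a difference of -0.06. For Unc5d the probe sets gave 0.21 and -0.02. Unc50, which matches by its letters only, was at 9.73 to 10.50 over the 6 arrays with a difference of -0.17.

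Co-receptors and other ligands of the same pathways were taken from a list of 19 genes, of which 18 had a value and 14 were tested. None passed (limma, all genes), 8 were higher and 6 lower, and the median was 0.04. At an unadjusted p under 0.05 there were 2 of the 14 (14.3%), Nrp1 lower and Flrt2 higher, beside 4.77% of all genes. Flrt2, a membrane protein that binds Unc5 receptors, was at 8.54, 8.51 and 8.71 on N1 to N3 and 9.31, 8.95 and 8.88 on T1 to T3. Its targeted arrays were all higher, by 0.46 (SE 0.17, limma adjusted p = 0.970), or 0.33 without T1. Neo1, neogenin, a receptor shared by netrins and repulsive guidance molecules, differed by 0.29, and Rgma, one of those molecules, by -0.35, both with overlapping arrays. Dcc, the netrin receptor for attraction, was not above background, at 5.53 to 6.10 over the 6 arrays.

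Inside the cell these receptors act on the cytoskeleton through adaptors and small GTPases. Of 48 such effectors listed, 44 had a value and 32 were tested. None passed (limma, all genes), 16 were higher and 16 lower, with a median of 0.00, and 3 (9.38%) had an unadjusted p under 0.05, beside 4.77% of all genes. Nck1, an adaptor downstream of Eph and Robo receptors, was at 6.77, 7.42 and 7.03 on N1 to N3 and 6.54, 6.56 and 6.12 on T1 to T3, all targeted arrays lower (-0.67, limma adjusted p = 0.947). Chn1, a Rac regulator downstream of Eph receptors, was at 5.19, 5.81 and 5.65 on N1 to N3 and 6.89, 5.75 and 7.04 on T1 to T3. Only T1 and T3 exceeded background, and the gene passed the filter on dim genes only through the targeted group, so no size of the difference is given (limma adjusted p = 0.954). Farp2, a plexin-A effector, differed by 0.43 with overlapping arrays. Arrays did not overlap for 4 of the 32 effectors (12.5%), beside 9.07% of all genes. Of these, 3 were lower (Nck1, Rac1 and Gripap1) and 1 was higher (Srgap1). Rac1, a small GTPase of this pathway, had a log2 difference of -0.23. Srgap1, which was not above background, differed by 0.30. Rhoa differed by -0.21 with overlap.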

How the data were processed

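The authors deposited array intensities on a linear scale, 1 value per probe set and array. The submitters' processing notes name RMA and the program Affymetrix Expression Console 1.4. The genome build is not given in the sources used here. The log2 of each intensity was taken. Of 35556 probe sets, 21789 named 1 gene in the platform annotation, 1621 named several and 12146 were not listed. Symbols were updated by Entrez identifier (RefSeq, GRCm38.p6), which matched 21698. The probe set with the highest mean over 6 arrays stood for its gene. Genes in the lowest 33.3% by that mean (log2 of 6.00 or less) were left out as dim. Groups were compared over all 13292 remaining genes with limma 3.58.1 in R 4.3.3 (lmFit, eBayes, no covariate), two-sided, with Benjamini-Hochberg adjustment and a threshold of 0.05. The procedure was tested on simulated data. Detection calls were not used here, and array median intensities ran from 79.4 to 87.5. With 3 arrays a group, precision is limited by their number.

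The guidance genes, gene lists and tests were chosen with earlier results of these data known. Guidance genes given with every array were those past the threshold, up to 8 per direction with non-overlapping arrays, the 3 with the highest intensity per family and 18 fixed genes. From the pathway lists, Nrp1, Flrt2, Nck1 and Chn1 are also given so, picked for an unadjusted limma p under 0.05 in these data. Nrp2, Itgb1 and Itga1 of those lists are given so outside these rules. Others are named by their counts, or after their values were seen where said. Alternatives were other filters, scalings and variance models, averaging all probe sets of a gene, the replicate number as a block, and leaving out arrays. The labels call the samples biological replicates. Promoter sequences are from RefSeq, and figures were drawn with matplotlib 3.10.9.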

Additional observations from a re-analysis of the deposited data

How the results depend on the processing

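No guidance gene passed limma's threshold under any of the 16 alternatives run, and the smallest adjusted p among them was 0.334, for Sema7a, without both replicate 1 arrays. Of 31 genes named with a test (26 guidance genes and 5 pathway genes), 18 kept their direction under every alternative that tested them. The 5 pathway genes were in this set because their unadjusted limma p was under 0.05 in these same data. Genes whose arrays did not overlap cannot turn when arrays are left out. Part of the 18 was thus fixed in advance, and the count is no separate support for any difference. Sema7a, Slit2, Sema4b, Plxna1, Nrp1 and Flrt2 were tested in all 16, while Robo2, Robo4, Ntn4 and Chn1 were tested in 14, since the stricter filters left them out. Sema7a ran from 1.01 to 1.53, Slit2 from 0.59 to 1.75 and Sema4b from -0.51 to -0.34. Directions turned under quantile normalization for Efna4 (0.027), Epha2 (0.027) and Plxnb1 (0.025). Leaving out both replicate 1 arrays, chosen after seeing the data, turned Efna4 (0.030), Efna5 (0.056), Epha2 (0.19), Plxna2 (-0.023), Sema5a (-0.31) and Slit3 (-0.024), and gave a median over guidance genes of 0.098 and 33 of 51 guidance genes (64.7%) with non-overlapping arrays, beside 51.6% of all genes in that fit. Fits without 1 array each turned 11 genes, with ranges of -0.042 to 0.015 for Efna4, -0.16 to 0.17 for Efna5, -0.094 to 0.14 for Epha2, -0.025 to 0.13 for Epha4, -0.070 to 0.19 for Ntn1, -0.069 to 0.036 for Plxnb1, -0.21 to 0.11 for Plxnd1, -0.066 to 0.12 for Sema4d, -0.12 to 0.30 for Sema5a, -0.14 to 0.14 for Sema6d and -0.14 to 0.021 for Unc5c. The cause was not tested. In those fits the guidance median ran from -0.022 to 0.070, and 24 to 35 genes were higher in targeted cells. The non-overlapping count was 14 (27.5%) without T1, 9 (17.6%) without N1, 8 (15.7%) without T2 and 7 (13.7%) without N2. The shares of all genes in these fits were 27.5%, 21.9%, 16.9% and 15.6%. Without T3 the count was 5 (9.8%) and without N3 it was 4 (7.84%), beside 16.3% and 14.5% of all genes. With a stricter filter on dim genes (9969 genes tested), 17 of 36 guidance genes were higher. The 99th percentile as background left 25 of the 67 guidance genes above it, beside 7190 of all 19938 genes.

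The same replicate numbers occur in both groups, but the labels do not say that a number marks a mouse. Deviations of same-numbered arrays correlated across genes at -0.26, -0.12 and 0.07 for numbers 1, 2 and 3, and of the 6 arrays only N3 correlated best with its own number. Xist was high on N1 and T1 only (11.31 and 12.004, against 5.64 to 5.88), and the Y-linked genes Eif2s3y, Kdm5d and Uty were lowest there (Eif2s3y 4.72 and 4.54, against 5.71 to 7.75). Each group thus had 1 array with a female and 2 with a male pattern. Whether N1 and T1 came from 1 mouse was not tested. With the replicate block 1 gene passed over all genes, no guidance gene passed, and the adjusted p of Sema7a was 0.667.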

Other observations

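Several guidance genes are direct neighbours in the RefSeq gene order. Sema3d and Sema3a lie next to each other on chromosome 5 with 0 coding genes between. Both were dim, below background and not tested, so no size of a difference is given. The same holds for Sema3e, 3 coding genes further along. Robo1 and Robo2 adjoin on chromosome 16 and differed by -0.24 and 0.51, with Robo2 not above background and the size of its difference uncertain. Efna1, Efna3 and Efna4 adjoin on chromosome 3. Efna1 and Efna4 exceeded background and differed by 0.01 and -0.02, while Efna3 was dim and not tested.

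The median of the 25 guidance genes not above background was 5.93, 5.73 and 5.84 on N1 to N3 and 5.74, 5.86 and 5.96 on T1 to T3. The median of the 1194 sensory receptor genes was 4.69, 4.49 and 4.65 on N1 to N3 and 4.54, 4.77 and 4.77 on T1 to T3. In both, N2 and T1 were the lowest arrays of their groups. Guidance genes above background had medians of 7.25, 7.39 and 7.27 on N1 to N3 and 7.19, 7.41 and 7.33 on T1 to T3, with T1 again lowest in its group and N2 highest in its own.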
